A study of Homo sapiens with 22 samples.

Results

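The nuclear genes of oxidative phosphorylation were described here by how much of their RNA was recovered with PSF, an RNA-binding protein, in human prostate cancer cell lines. They were taken by symbol, as protein-coding RefSeq transcripts whose names begin with NDUFA, NDUFB, NDUFC, NDUFS, NDUFV, UQCR, COX4 to COX8 or ATP5, together with SDHA, SDHB, SDHC and SDHD. Where a symbol had several transcripts, the one with the highest mean read count was kept. The rule gave 94 genes of 20242 symbols in the tables: 46 for complex I and its assembly, 4 for complex II, 9 for complex III, 16 for complex IV, 17 for complex V and 2 readthrough transcripts. Not all of them are subunits: 9 of the complex I entries are assembly factors (ATP5SL, despite its name, is one of them), UQCRHL and ATP5L2 are copies of UQCRH and ATP5L, and the subunits encoded by mitochondrial DNA are outside the rule.

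RNA immunoprecipitation with a PSF antibody (PSF-RIP) and the matching input RNA were sequenced in 3 lines, and ultraviolet crosslinking with PSF immunoprecipitation (PSF-CLIP) was done in 1 of them. The lines were 22Rv1 and LNCaP, both grown in medium with full serum, and the line labelled LTAD, grown without phenol red in charcoal-stripped serum. Before hormone treatment every line was moved to stripped serum, and each was then given dihydrotestosterone (DHT, 10 nM, 24 h), the androgen that activates the androgen receptor, or ethanol as vehicle. Each line, treatment and assay had 1 library, which gave 6 PSF-RIP and 6 input libraries in 6 line-treatment pairs. No immunoglobulin or other control immunoprecipitation was analysed here, so PSF-RIP over input holds whatever the beads and antibody retained. No label says that the libraries came from separate cultures, so the p-values measure the spread between libraries, which may be technical.

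Oxidative phosphorylation takes electrons from NADH at complex I and from succinate at complex II, passes them through ubiquinone to complex III and through cytochrome c to complex IV, where oxygen is reduced, and uses the proton gradient so built to make ATP at complex V. Most of the subunits are encoded in the nucleus, made in the cytosol and imported into mitochondria, and many of the accessory subunits are very short proteins. PSF, the product of SFPQ, is mainly a nuclear protein of splicing, transcription and paraspeckles, and is known to bind RNA, including that of androgen-regulated genes in prostate cancer cells.

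Uniquely mapped reads ranged from 4641602 to 10439461 in the PSF-RIP libraries and from 1073228 to 3014049 in the input libraries, so the input values carry the larger counting error. Markers of prostate luminal cells were present in the input of every line (7 of 7 genes with reads), the basal genes summed to at most 1.62 CPM per library (TP63 at 0), and the muscle genes to at most 1.62 CPM (MYH7 and CKM at 0). The stromal and leukocyte list, mostly VIM, summed to 25.0 to 33.3 CPM in 22Rv1, 115 to 156 in LTAD and 77.9 to 153 in LNCaP, and the neuroendocrine list to 125 to 131 CPM in 22Rv1, 61.5 to 89.8 in LTAD and 41.4 to 42.1 in LNCaP; their part in the differences between lines was not tested. SFPQ itself was at 283 to 389 CPM (counts scaled to 1000000 reads per library) in PSF-RIP and at 135 to 191 CPM in input. Library sizes were adjusted by TMM, a scaling that assumes most genes do not differ, and every log2 difference is relative to that scale. In all, 90 of the 94 genes had enough reads to be tested. The other 4, the testis isoforms COX6B2, COX7B2 and COX8C and the copy ATP5L2, had 3, 17, 1 and 3 reads over the 12 libraries.

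Transcripts of the respiratory chain were mostly under-represented in PSF-RIP. Of the 90 tested genes, 73 were lower in PSF-RIP than in input and 10 were higher at an adjusted p of 0.05, against 27.5% lower and 30.5% higher of all 13363 genes tested (edgeR's quasi-likelihood test with Benjamini-Hochberg adjustment over all genes). Their median log2 difference was -1.12, where that of all tested genes was 0.05. In 73 of the 90 the direction was down in 6 of 6 line-treatment pairs, and in 9 it was up in 6 of 6. The share of all genes with 1 direction in 6 of 6 pairs was not counted. The 6 PSF-RIP values lay wholly below the 6 input values for 56 of the 90 (7.93% of all genes tested did so), and for 0 did they lie wholly above (5.5% of all genes). Taken as a sum, the 94 genes held 4542, 5238 and 6469 exonic reads per 1000000 mapped (lowest, median, highest) in PSF-RIP and 6233, 7122 and 9327 in input. The sum was lower in PSF-RIP in 6 of 6 pairs, at 0.680 to 0.792 of its input.

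The pattern was seen in each line. The median over the 90 genes of the log2 difference averaged over a line's vehicle and DHT pairs was -1.10 in 22Rv1, -1.27 in LTAD and -1.13 in LNCaP. By single pair the median lay between -1.31 (LTAD vehicle) and -1.02 (22Rv1 DHT).

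**Figure D1:**
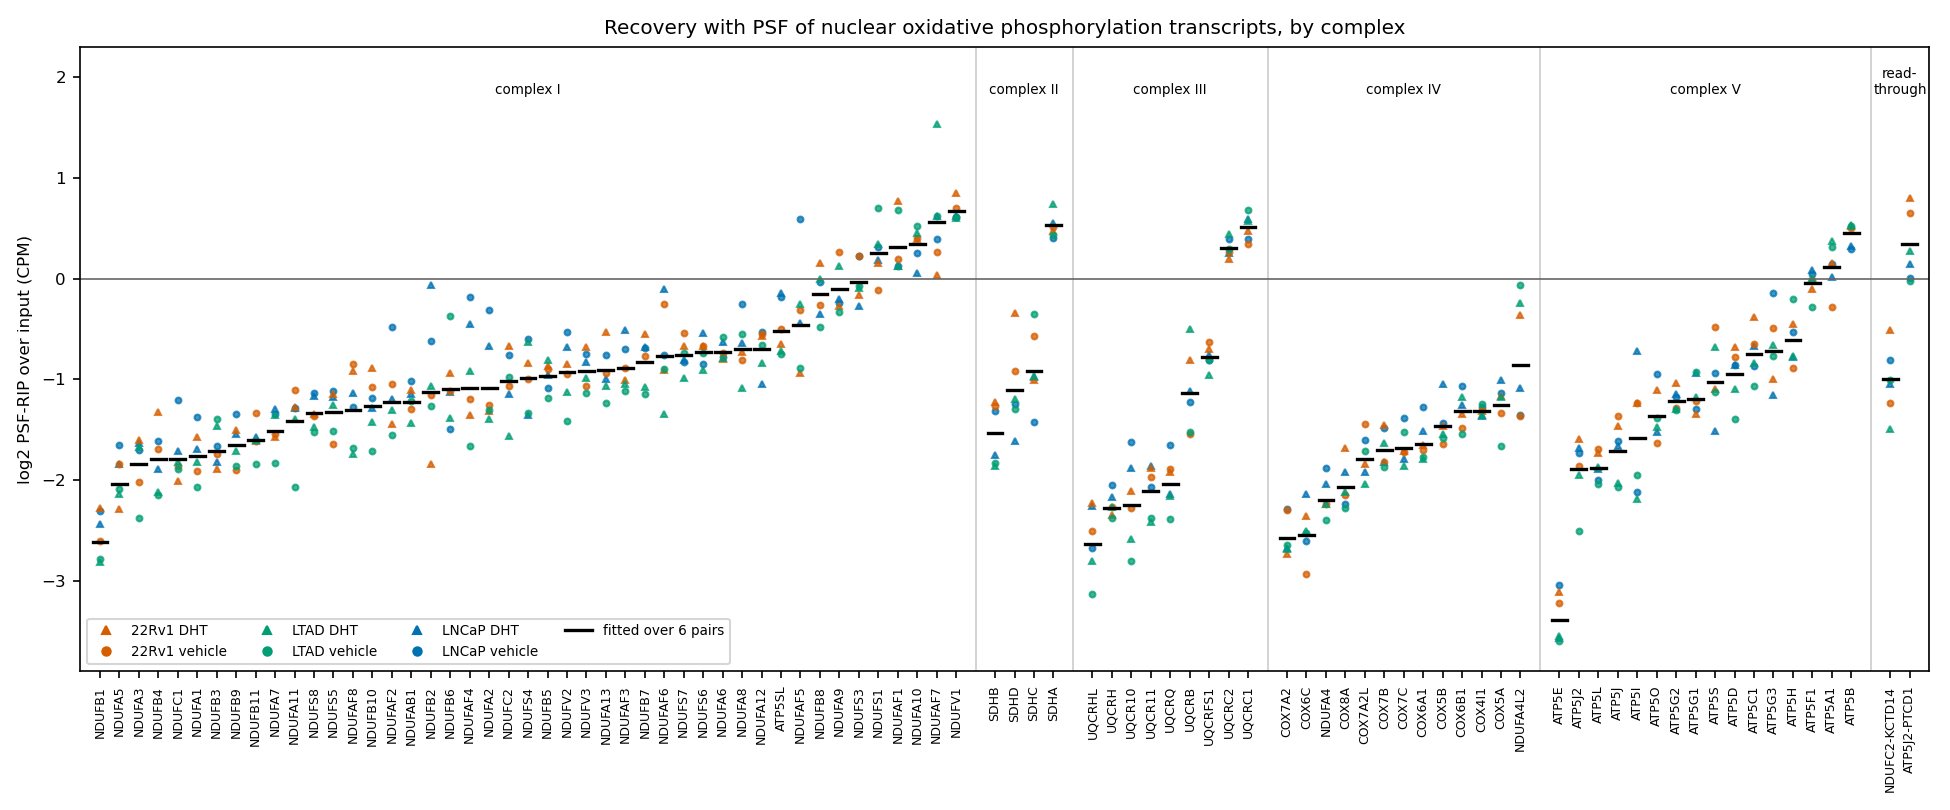
Each point is the log2 ratio of PSF-RIP to input CPM in 1 line-treatment pair for 1 gene, ordered within its complex by the fitted value (black bar); 89 of the 90 tested genes are drawn, and the 2 readthrough transcripts stand at the right. Most bars lie below 0, from -3.39 for ATP5E, and the few above 0 sit at the right end of complexes I, II, III and V and in 1 readthrough transcript.

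Complex I, the NADH dehydrogenase, had 5 genes higher and 36 lower of 46, with a median of -0.98, and its parts differed. Of 7 core subunits, the ones that carry out electron transfer, 3 were higher and 3 lower, with a median of -0.03. Of 30 accessory subunits 1 was higher and 27 lower (median -1.11), and of 9 assembly factors 1 was higher and 6 lower (median -0.77). The genes that were higher are mainly the enzyme's large catalytic subunits.

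NDUFV1, at chr11:67374323-67380012 in hg19, encodes the subunit that binds NADH and flavin. It had 125, 202 and 230.3 CPM (lowest, median, highest) in PSF-RIP and 76.9, 132 and 151 CPM in input. The ranges overlapped because 22Rv1 was low in both assays, but PSF-RIP was above its own input in 6 of 6 pairs. The log2 difference was 0.67 ± 0.09 (standard error, here and below; edgeR adjusted p = 3.13e-06), the highest of the complex.

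NDUFA10, a nucleoside kinase-like accessory subunit, had 78.3, 86.9 and 111 CPM in PSF-RIP and 57.5, 69.4 and 84.6 CPM in input. PSF-RIP exceeded input in 6 of 6 pairs, with a difference of 0.35 ± 0.09 (edgeR adjusted p = 0.00344). NDUFAF7, a methyltransferase that acts during assembly of the complex, was a rarer transcript, at 9.94, 16.2 and 17.5 CPM in PSF-RIP and 5.52, 10.2 and 13.2 CPM in input. All 6 pairs went up, but by amounts from 0.03 to 1.54 with the largest in LTAD DHT. Its difference of 0.56 ± 0.19 (edgeR adjusted p = 0.0176) did not pass the threshold without LNCaP, without LTAD or without the LTAD DHT pair (adjusted p = 0.0553, 0.197 and 0.0890).

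NDUFS1, the largest iron-sulfur subunit, was the weakest of the 10 higher genes. It had 70.3, 85.8 and 122 CPM in PSF-RIP and 65.2, 73.5 and 96.2 CPM in input, and 5 of 6 pairs went up. The difference was 0.25 ± 0.10 (edgeR adjusted p = 0.0430), and its call was lost with DESeq2 (adjusted p = 0.0571), without LNCaP or any one of its pairs, and without LTAD or any one of its pairs (adjusted p = 0.0502 to 0.427). It also missed it with either length trend removed and at equal depth (adjusted p = 0.102, 0.598 and 0.193). The remaining core subunits were not higher: NDUFS3 had 41.9 CPM in PSF-RIP and 43.8 CPM in input as medians and did not pass the test, while the iron-sulfur subunits NDUFS8, NDUFV2 and NDUFS7 were lower, at -1.34 ± 0.09, -0.93 ± 0.12 and -0.76 ± 0.10.

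At the other end of complex I stood small accessory subunits. NDUFB1, which sits in the membrane arm, had 8.71, 9.72 and 11.5 CPM in PSF-RIP and 51.3, 59.96 and 72.6 CPM in input. Its groups did not overlap, and the difference of -2.61 ± 0.13 (edgeR adjusted p = 3.95e-13) was the lowest of the complex. NDUFA5, an accessory subunit of the matrix arm, had 9.79, 12.4 and 24.2 CPM in PSF-RIP and 35.5, 55.5 and 121 CPM in input. Both assays were highest in 22Rv1, the groups did not overlap, and the difference was -2.04 ± 0.12 (edgeR adjusted p = 1.43e-11). The complex I genes that did not pass the test were NDUFAF1, NDUFAF5, NDUFA9, NDUFB8 and NDUFS3, with log2 differences between -0.46 and 0.31.

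Complex II, succinate dehydrogenase, feeds electrons from the citric acid cycle into the chain and has only nuclear subunits. Its flavoprotein SDHA, which oxidises succinate (chr5:218338-257197), had 64.3, 76.0 and 95.6 CPM in PSF-RIP and 45.8, 53.1 and 70.7 CPM in input. SDHA was higher in 6 of 6 pairs, by 0.53 ± 0.10 (edgeR adjusted p = 0.000148); it has pseudogene copies elsewhere in the genome, so uniquely mapped reads may miss part of it. The iron-sulfur partner SDHB had 14.6, 19.0 and 39.4 CPM in PSF-RIP and 48.7, 64.1 and 92.9 CPM in input. SDHB was lower in every pair without overlap of the groups, by -1.53 ± 0.12 (edgeR adjusted p = 1.58e-09).

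The membrane anchors went with SDHB. SDHC had 22.3, 29.7 and 55.6 CPM in PSF-RIP and 28.7, 69.2 and 89.5 CPM in input, and SDHD, the rarest of the complex, had 5.88, 10.1 and 13.6 CPM in PSF-RIP and 14.2, 21.7 and 27.5 CPM in input. Only the SDHC groups overlapped, since its LTAD vehicle and DHT inputs (28.7 and 45.7 CPM) lay below its 22Rv1 vehicle PSF-RIP library (55.6 CPM). The differences were -0.92 ± 0.12 for SDHC and -1.11 ± 0.18 for SDHD (edgeR adjusted p = 2.64e-06 and 2.37e-05), and both calls were lost once the genome-wide trend with coding length was removed (adjusted p = 0.213 and 0.109).

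Complex III, which passes electrons from ubiquinol to cytochrome c, split by subunit class as well, with 2 genes higher, 7 lower and a median of -2.04. The core proteins UQCRC1 and UQCRC2 are large relatives of a mitochondrial processing peptidase. UQCRC1 (chr3:48636432-48647098) had 187, 230.0 and 288 CPM in PSF-RIP and 140.3, 170.1 and 193 CPM in input, and UQCRC2 had 104, 200.2 and 253 CPM in PSF-RIP and 86.6, 161 and 186 CPM in input. Both were higher in 6 of 6 pairs with overlapping ranges, by 0.51 ± 0.08 and 0.31 ± 0.08 (edgeR adjusted p = 2.26e-05 and 0.00301). The Rieske iron-sulfur protein UQCRFS1 was lower, by -0.78 ± 0.10.

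All 5 accessory subunits of complex III were lower, and so was the copy UQCRHL. UQCRH, the acidic hinge protein, had 15.7, 20.5 and 21.8 CPM in PSF-RIP and 82.5, 94.5 and 110.2 CPM in input. UQCRHL had 20.7, 23.3 and 29.6 CPM in PSF-RIP and 124, 139.8 and 208 CPM in input. The groups were far apart for both, at -2.28 ± 0.10 for UQCRH and -2.63 ± 0.12 for UQCRHL (edgeR adjusted p = 1.16e-13 and 1.46e-13), but the sequences of the pair are nearly the same and the counting may have split their reads either way.

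UQCR10 had 26.6, 30.0 and 36.4 CPM in PSF-RIP and 111, 146 and 190.4 CPM in input. UQCR11 had 30.6, 35.8 and 43.5 CPM in PSF-RIP and 139, 161 and 166 CPM in input, and UQCRQ had 33.6, 40.9 and 46.4 CPM in PSF-RIP and 147, 155 and 232 CPM in input. For each of these small membrane subunits every PSF-RIP library was below every input library. The differences were -2.25 ± 0.13, -2.11 ± 0.10 and -2.04 ± 0.10 (edgeR adjusted p = 7.78e-12, 2.15e-13 and 7.62e-13).

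Complex IV, cytochrome c oxidase, had no exception: 13 of 13 tested genes were lower, with a median of -1.68. Its catalytic core is made in the mitochondria, and the nuclear genes counted here encode the small subunits around it. COX7A2, the widely expressed isoform of subunit VIIa, had 8.59, 22.7 and 41.3 CPM in PSF-RIP and 58.3, 129 and 218 CPM in input. COX7A2 was lowest in LTAD in both assays, the groups did not overlap, and the difference of -2.57 ± 0.11 (edgeR adjusted p = 8.12e-14) was the lowest of the complex. COX6C had 25.0, 29.7 and 33.5 CPM in PSF-RIP and 136, 166 and 226 CPM in input, a difference of -2.54 ± 0.10 (edgeR adjusted p = 2.33e-14).

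NDUFA4, named as a complex I subunit but now placed in complex IV, had 18.7, 25.9 and 44.4 CPM in PSF-RIP and 90.7, 117 and 212 CPM in input. COX8A, the widely expressed isoform of subunit VIII, had 38.4, 50.1 and 108 CPM in PSF-RIP and 169, 221 and 431 CPM in input. In both genes the groups were apart, and 22Rv1 was the highest line in PSF-RIP and in input. The differences were -2.20 ± 0.10 for NDUFA4 and -2.07 ± 0.10 for COX8A (edgeR adjusted p = 1.38e-13 and 3.14e-13). NDUFA4L2, a hypoxia-induced paralogue of NDUFA4, was the least reduced of the complex and the least abundant, with 2.01, 3.57 and 12.8 CPM in PSF-RIP and 3.15, 6.15 and 23.2 CPM in input. All 6 of its pairs were down, by -0.07 to -1.36, and the fitted value was -0.86 ± 0.25 (edgeR adjusted p = 0.00634). That call was lost without 22Rv1 (adjusted p = 0.103), without the 22Rv1 vehicle pair (0.0885), at equal depth (0.151) and with the trend of exonic length removed (-0.30, 0.329), and the sign turned, to 0.41, when the trend with coding length was removed.

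Complex V, the ATP synthase, had 1 gene higher and 13 lower of 16, with a median of -1.11. The catalytic beta subunit ATP5B (chr12:57031959-57039852) was the most abundant of all the genes, with 701, 1023 and 1245 CPM in PSF-RIP and 573, 718 and 866 CPM in input. It was higher in 6 of 6 pairs, by 0.45 ± 0.08 (edgeR adjusted p = 0.000128). Its partner in the F1 head, the alpha subunit ATP5A1, had 241, 336 and 596 CPM in PSF-RIP and 252, 329 and 461 CPM in input, with 5 of 6 pairs up. ATP5A1 did not pass the test, at 0.12 ± 0.10 (edgeR adjusted p = 0.308).

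The epsilon subunit of the same F1 part gave the lowest value of the whole set. ATP5E, at chr20:57603733-57607422, had 17.1, 20.5 and 22.4 CPM in PSF-RIP and 167, 203 and 262 CPM in input. No PSF-RIP library came near an input library, and the difference was -3.39 ± 0.10 (edgeR adjusted p = 1.26e-16). Copies of ATP5E elsewhere in the genome may take some of its reads. The peripheral stalk and membrane part had 9 of 10 genes lower (median -1.29) and ATP5F1, the stalk subunit b, without a call at -0.05 ± 0.09. ATP5G1, ATP5G2 and ATP5G3, which encode the same mature ring subunit c, were lower, at -1.19 ± 0.12, -1.21 ± 0.08 and -0.72 ± 0.12.

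Of the readthrough transcripts, NDUFC2-KCTD14 was lower, like NDUFC2 (-1.02 ± 0.12), with which it shares exons. ATP5J2-PTCD1 had 86.1, 96.7 and 268 CPM in PSF-RIP and 82.0, 90.2 and 153 CPM in input, whereas ATP5J2 itself, a membrane-part subunit, was lower, at -1.89 ± 0.11. The highest PSF-RIP values of ATP5J2-PTCD1 were those of 22Rv1, where both pairs were up, and 5 of 6 pairs were up in all. Its difference of 0.34 ± 0.11 (edgeR adjusted p = 0.00965) missed the threshold without 22Rv1 (0.10, adjusted p = 0.460) and without the 22Rv1 DHT pair (adjusted p = 0.0734), and with the coding trend removed (adjusted p = 0.207). Its exons also belong to ATP5J2 and PTCD1, so its reads cannot be assigned to the readthrough RNA itself.

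**Figure D2:**
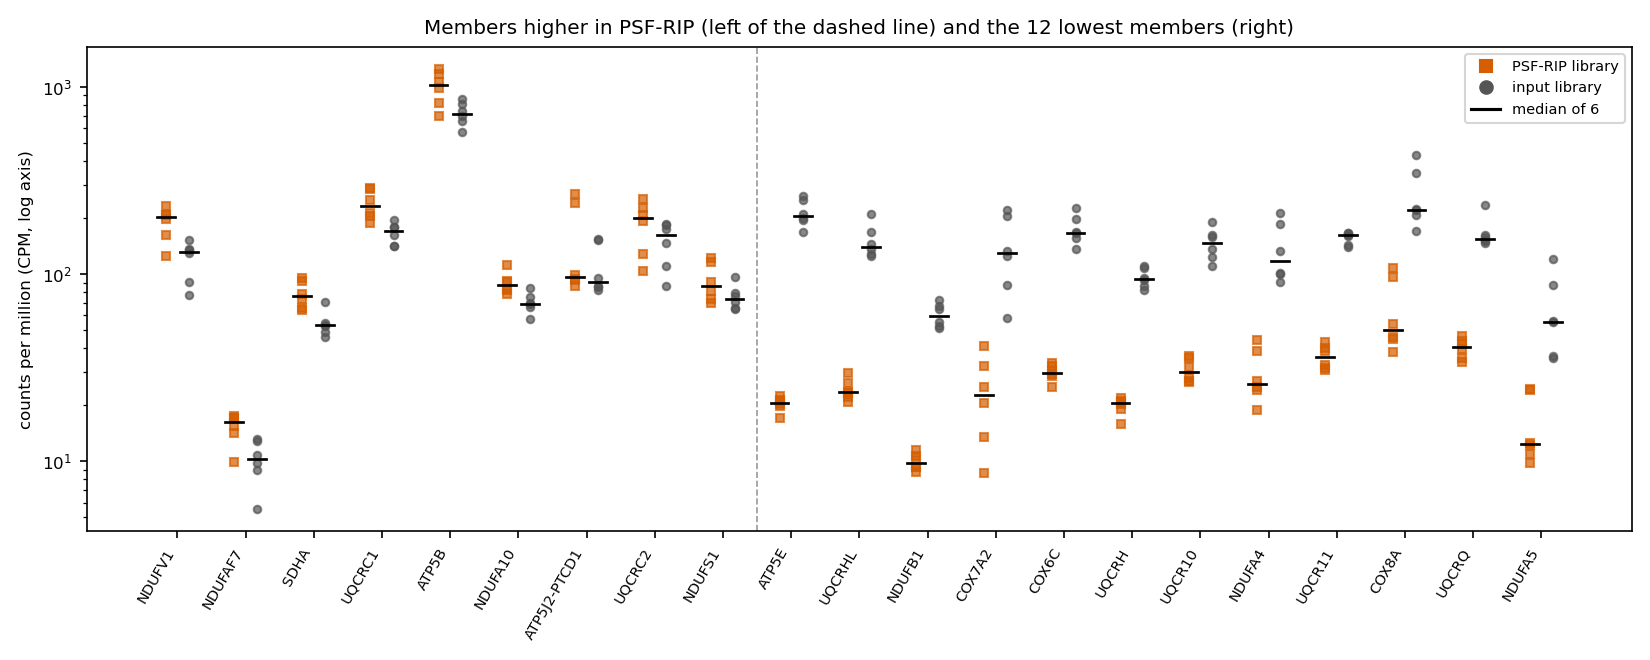
CPM (log axis) of each PSF-RIP library (squares) and each input library (circles) for 9 of the 10 genes that were higher in PSF-RIP, left of the dashed line, and for the 12 lowest genes, right of it, with the median of 6 libraries as a bar. On the left the clouds overlap, with ATP5B between 701 and 1245 CPM in PSF-RIP against 573 to 866 in input; on the right they are apart, with ATP5E between 17.1 and 22.4 CPM in PSF-RIP against 167 to 262 in input.

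The exceptions shared their size. All 10 higher genes have a coding sequence longer than 1000 nt in the canonical GENCODE transcript, a property the selection by name did not use. Of 14 tested genes of that length 10 were higher, 1 was lower (NDUFV3, an accessory subunit of complex I, at -0.92 ± 0.09) and NDUFA9, NDUFAF5 and ATP5A1 had no call. Among the 23 genes with a coding sequence of up to 300 nt all 23 were lower (median -1.89), and among the 40 of 300 to 600 nt 39 were lower (median -1.13). Of the 12 between 600 and 1000 nt 9 were lower and 0 higher, with a median of -0.77, and above 1000 nt the median was 0.35.

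The same gradient ran through all genes. In those classes of coding length 82.9%, 71.2% and 43.5% of all tested genes were lower, and in the longest 41.1% were higher and 15% lower. The medians over all tested genes were -1.31, -0.80, -0.26 and 0.25, so that the respiratory chain genes lay below the general median in the shorter classes and close to it in the longest. Spearman's rank correlation between coding length and the log2 difference was 0.82 over 89 of the genes and 0.56 over 12247 genes, and by pair it lay between 0.759 and 0.833. These are correlations across genes that share their libraries, given as a description. Coding length was chosen after the values had been seen.

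The length of the whole exonic transcript followed the recovery less closely. Its rank correlation was 0.47 over the 90 genes and 0.29 over all 13363. Up to 600 nt of exonic length 21 of 21 genes were lower (median -1.58), against 76.5% lower and a median of -1.53 for all genes of that class. Between 1500 and 2500 nt 14 of 24 were lower and 6 higher (median -0.85), against 26.7% lower, 24.6% higher and a median of 0.01 for all genes. Within that last class the coding part set the genes apart. With up to 600 nt of coding sequence 11 of 11 were lower (median -1.21; all genes 66.7% lower, median -0.79). Above 1000 nt 6 were higher and 1 lower of 10 (median 0.35; all genes 35% higher, median 0.19).

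Single genes show the contrast. NDUFA5 has 5536 nt of exons and 348 nt of coding sequence and was at -2.04, and NDUFA4 has 2058 nt of exons and 243 nt of coding sequence and was at -2.20. UQCRC2, with 2211 nt of exons and 1359 nt of coding sequence, was at 0.31. After the trend with exonic length had been removed in each library, 48 of the 90 were lower and 17 higher, with a median of -0.30, where all genes had 23.5% lower, 34.1% higher and a median of 0.12. After the trend with coding length had been removed, 45 of 89 were lower and 14 higher, with a median of -0.34, where all genes had 21.6% lower, 30.1% higher and a median of 0.08. The labels name a target enrichment kit for library construction and give no list of its probes, and the part of capture in these length gradients was not tested.

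**Figure D3:**
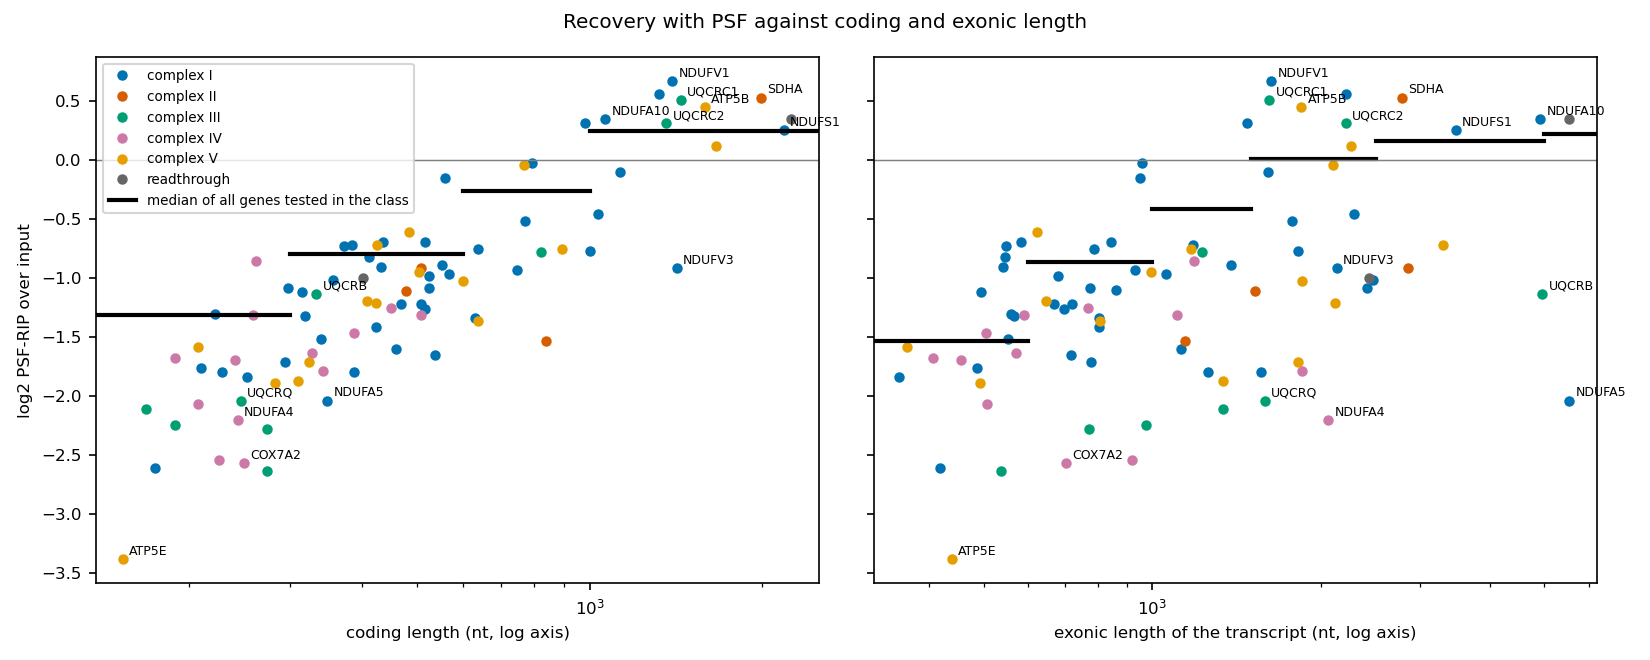
The log2 difference between PSF-RIP and input for 89 of the 90 tested genes against coding length (left, where the gene has one) and exonic length (right), both on log axes, coloured by complex; black bars give the median of all tested genes in each length class. Every gene drawn above 0.2 lies at the right of the left panel near or beyond 1000 nt, while in the right panel NDUFA4, NDUFA5 and UQCRB have long transcripts and low values.

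Intronic reads, which come from RNA not yet spliced or from other transcripts within the intron, were counted separately by the authors. Fewer of the genes were lower in them than in exonic reads, though a larger share was lower than among all genes. Of 89 genes tested on summed intronic reads 11 were higher and 19 lower in PSF-RIP (12.3% and 7.95% of 11329 genes), with a median of 0.02 where all genes had 0.10. Among the 72 genes with lower exonic reads, 68 had an intronic difference above the exonic one, with medians of 0.02 and -1.29. These genes were picked by their low exonic value, so most other measures would lie above it. The same share over all genes lower in exonic reads was not counted. Of these 72, 14 were lower in introns too, 5 were higher and 53 had no call. Intronic reads made up 10.5%, 18.5% and 24.9% of the reads of the 94 genes in PSF-RIP and 9.14%, 12.9% and 15.1% in input, and the share was larger in PSF-RIP in 6 of 6 pairs. Over all genes it was 12.5% to 22.7% in PSF-RIP and 12.3% to 19.5% in input, and it too was larger in PSF-RIP in 6 of 6 pairs.

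The intronic calls often rested on 1 intron. NDUFB4, an accessory subunit of complex I that was lower in exonic reads (-1.80 ± 0.11), was higher in intronic reads by 0.75 ± 0.18 (edgeR adjusted p = 0.00421). Its only counted intron, chr3:120315387-120319957, held 13.2, 26.3 and 73.9 CPM in PSF-RIP and 4.73, 18.3 and 43.7 CPM in input, with 6 of 6 pairs up and overlapping ranges. UQCRC2 was higher in introns by 1.21 ± 0.19 (edgeR adjusted p = 7.54e-05), and its intron at chr16:21987565-21991867 had 25.0, 33.4 and 94.6 CPM in PSF-RIP and 3.59, 6.02 and 19.0 CPM in input. No PSF-RIP library of that intron was below an input library. The first intron of NDUFV1, chr11:67374548-67375866, had 9.30, 16.9 and 48.3 CPM in PSF-RIP and 2.37, 7.43 and 12.4 CPM in input, again with 6 of 6 pairs up.

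Of the 10 genes with higher exonic reads, 3 were higher in introns too (NDUFV1, UQCRC2 and NDUFA10), 4 were lower and 3 had no call. Among the lower ones were SDHA (-0.64 ± 0.20), ATP5J2-PTCD1 (-0.96 ± 0.14) and UQCRC1, the lowest. The intronic reads of UQCRC1 were lower, at -2.19 ± 0.14 (edgeR adjusted p = 1.55e-11), and 83.7% of them lay in the intron at chr3:48642214-48643202. That intron had 13.7, 15.7 and 49.8 CPM in PSF-RIP and 61.1, 87.1 and 254 CPM in input, with 0 of 6 pairs up. ATP5J had the next lowest intronic value, -1.99 ± 0.17. These 4 introns overlap an exon annotated on the same strand (GENCODE v44), and were picked after their values had been seen. When every such intron was left out, 41 genes could be tested, of which 2 were higher (NDUFB10 and ATP5F1, at 1.75 ± 0.39 and 0.57 ± 0.19) and 12 lower, with a median of -0.35. Over all genes that count was 4.68% higher and 10.7% lower of 6320, with a median of -0.12. UQCRC2 was at -0.50 ± 0.27 there, without a call.

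**Figure D4:**
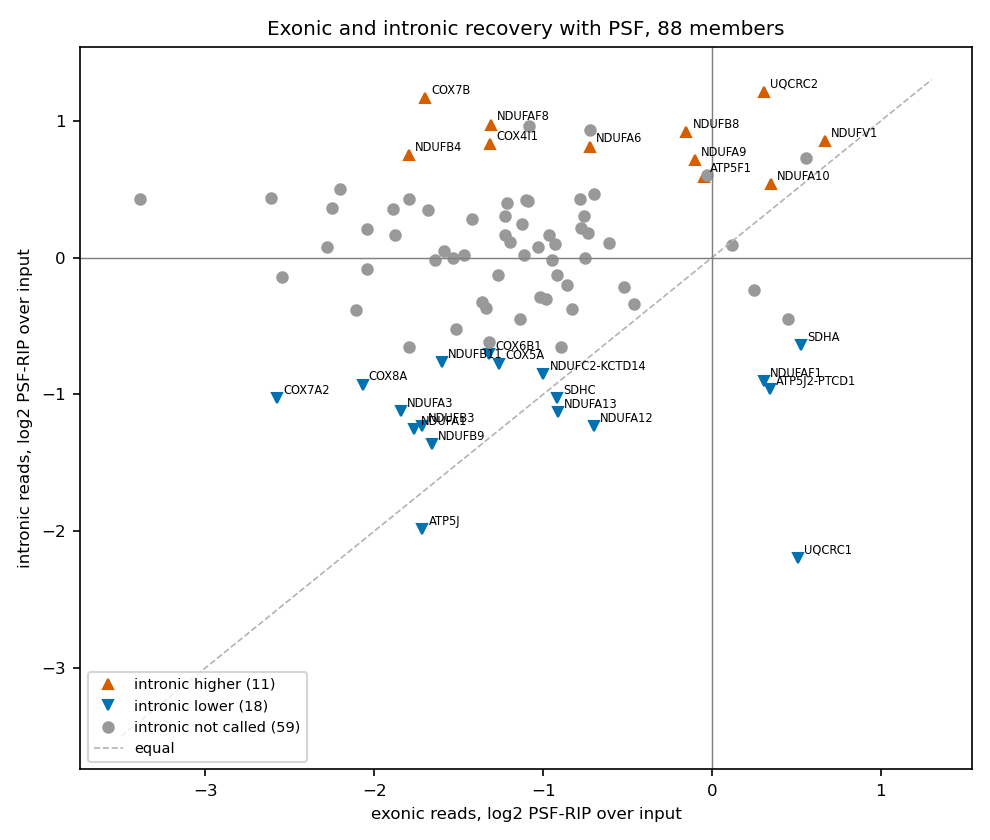
Intronic against exonic log2 difference between PSF-RIP and input for 88 of the 89 genes, with intronic calls marked by colour and shape and the dashed line at equal values. Most points lie left of 0 and above the dashed line, and UQCRC1 stands alone at the lower right. Among the genes lower in exonic reads, which were picked by that value, the exonic median was -1.29 and the intronic median 0.02.

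Peaks of PSF-CLIP were deposited as 4 lists from LNCaP, named for the peak caller MACS, with 23580 and 13546 peaks after DHT and 24242 and 7691 after vehicle. A gene counted as having a peak if at least 1 base of one lay within its RefSeq span. After DHT 32 of the 94 genes had a peak in replicate 1 (34.0%, against 31% of all 20242 genes) and 9 in replicate 2 (9.57%, against 21.3%). After vehicle 30 had one in replicate 1 (31.9%, against 32.1%) and 9 in replicate 2 (9.57%, against 9.63%). In at least 1 list 39 genes had a peak (41.5%, against 43.9% of all genes), and in at least 2 lists 26. Among tested genes only, 38 of the 90 had a peak in at least 1 list, against 7503 of all 13363. By list these were 32 of the 90 (DHT replicate 1) and 9 (DHT replicate 2), against 42.3% and 26.8% of all tested genes. After vehicle they were 29 (replicate 1) and 8 (replicate 2), against 43.9% and 11.4%. The counts differed between replicates of 1 treatment by more than between the treatments, and the lists differ in their number of peaks. Genes with a peak had a median span of 14012 bases and those without of 7437.

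The peaks lay mainly in introns, 97 of 142 without touching an annotated exon. The same share over all peaks was not counted. The median log2 difference of PSF-RIP over input was -1.04 over 38 tested genes with a peak and -1.26 over 52 without, where all tested genes had 0.08 with a peak and 0.02 without; the difference was not tested. Of the 10 genes higher in PSF-RIP, 3 had a peak (NDUFA10, SDHA and UQCRC2), and of the 73 lower ones 31. The complex I genes NDUFB2, NDUFB4, NDUFV2, NDUFAF5 and NDUFAF6 had a peak in all 4 lists. For a peak in at least 2 or in all 4 lists, the share of all genes was not counted. In NDUFAF5, NDUFB2 and NDUFB4 some bases were covered in all 4 lists (3.19% of the 94 genes, 2.02% of all genes), always inside an intron.

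NDUFAF5, a hydroxylase that modifies NDUFS7 during assembly, had the highest score of the set, 996.37 in vehicle replicate 1, rank 131 of the list. The score is the authors' own, its unit is not stated, and it serves here to order peaks inside their list. The scores of the peaks over the shared bases were 536.10 and 50.27 after DHT and 996.37 and 97.57 after vehicle in NDUFAF5, 362.63 and 116.52 after DHT and 522.63 and 68.48 after vehicle in NDUFB2, and 422.78 and 155.66 after DHT and 750.06 and 60 after vehicle in NDUFB4.

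The bases of these introns that all 4 lists covered are shown because they are the sites where the CLIP libraries overlap best. They were read from hg19 on the gene's own strand, 5′ to 3′, at chr20:13791038-13791095 for NDUFAF5, chr7:140398329-140398628 for NDUFB2 (the central 300 of 313 bases) and chr3:120318106-120318351 for NDUFB4. All 3 genes lie on the + strand, and capitals mark runs of at least 10 purines (A or G).
NDUFAF5: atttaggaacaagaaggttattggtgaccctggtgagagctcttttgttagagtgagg
NDUFB2: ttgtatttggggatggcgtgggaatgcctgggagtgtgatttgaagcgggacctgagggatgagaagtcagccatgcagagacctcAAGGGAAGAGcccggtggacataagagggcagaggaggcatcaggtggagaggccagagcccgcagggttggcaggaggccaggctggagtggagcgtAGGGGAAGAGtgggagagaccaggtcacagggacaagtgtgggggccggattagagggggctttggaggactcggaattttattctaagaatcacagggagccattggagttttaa
NDUFB4: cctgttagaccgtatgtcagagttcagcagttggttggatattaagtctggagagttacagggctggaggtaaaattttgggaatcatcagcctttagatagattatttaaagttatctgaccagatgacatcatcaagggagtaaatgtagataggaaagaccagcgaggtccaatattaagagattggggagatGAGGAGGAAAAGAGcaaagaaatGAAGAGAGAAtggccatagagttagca

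Purines made up 58.6% of the bases in NDUFAF5, 67% in NDUFB2 and 64.2% in NDUFB4. On the gene's strand NDUFB2 and NDUFB4 each held 2 runs of at least 10 purines, the longest of 10 bases in NDUFB2 and of 14 in NDUFB4, and NDUFAF5 held 0; none held a run of 10 or more pyrimidines, which would be a purine run on the other strand. Such runs are common in peaks. In windows of the same length centred on every peak of a list, a run on either strand was found in 57.5% to 82.0% of the 300-base windows and in 49.0% to 76.2% of the 246-base windows, depending on the list, so their presence is a description of these sites only. The peak over NDUFB4 lies within the intron described above, where PSF-RIP was above input in 6 of 6 pairs. The first intron of NDUFB2 that holds its peak had 8.12, 17.0 and 31.6 CPM in PSF-RIP and 6.93, 11.5 and 14.9 CPM in input, also with 6 of 6 pairs up, and it too overlaps an annotated exon. On summed intronic reads NDUFB2 and NDUFAF5 had no call, at 0.24 ± 0.19 and -0.34 ± 0.17 (edgeR adjusted p = 0.383 and 0.172). Without introns that overlap annotated exons, which leaves out that NDUFB2 intron, both were lower. There they were at -2.22 ± 0.66 and -1.32 ± 0.37 (edgeR adjusted p = 0.0228 and 0.0162).

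Whether the recovery with PSF differed between the lines was tested as the difference between lines of PSF-RIP over input. For 22Rv1 against LNCaP 0 of 13771 genes passed (0%; 810 at an unadjusted p under 0.05; DESeq2 called 1 higher and 4 lower), and so 0 of the 90 (4 unadjusted, DESeq2 0). The 4 genes with the smallest p were ATP5J2-PTCD1 (0.66 ± 0.19), NDUFB2 (-1.11 ± 0.34), NDUFA2 (-0.79 ± 0.27) and the assembly factor NDUFAF4 (-0.98 ± 0.44), each with an edgeR adjusted p of 0.844.

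NDUFB2 shows what lies behind such a value. It had 24.0 and 40.1 CPM in 22Rv1 PSF-RIP (DHT, vehicle) and 87.4 and 90.3 CPM in 22Rv1 input, against 16.3 and 16.5 CPM in LNCaP PSF-RIP and 17.0 and 25.6 CPM in LNCaP input. The input of 22Rv1 was far above that of LNCaP while the PSF-RIP levels were closer. With the line-treatment pair as a block, a fit that uses the strong likeness of each PSF-RIP library to its own input, 3 of the 90 passed: ATP5J2-PTCD1 higher in 22Rv1 and NDUFB2 and NDUFA2 lower (edgeR adjusted p = 0.00819, 0.00670 and 0.0434), where 271 genes were called higher and 126 lower in all.

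For LTAD against LNCaP 0 of 13771 genes passed (0%; 712 unadjusted; DESeq2 0), and 0 of the 90 (6 unadjusted, DESeq2 0). The smallest p-values belonged to UQCR10 (-0.94 ± 0.24), NDUFA2 (-0.86 ± 0.28), NDUFV2 (-0.67 ± 0.25) and ATP5J2 (-0.52 ± 0.21), each with an edgeR adjusted p of 0.928. UQCR10 had 26.6 and 26.7 CPM in LTAD PSF-RIP (DHT, vehicle) and 162 and 190.4 CPM in LTAD input, against 36.4 and 35.5 CPM in LNCaP PSF-RIP and 135 and 111 CPM in LNCaP input. Its PSF-RIP was lower and its input higher in both LTAD pairs. The fit with the pair as a block called UQCR10, NDUFV2 and NDUFA2 lower (edgeR adjusted p = 0.000189, 0.0367 and 0.0498) among 135 genes higher and 137 lower. The complex II genes had no call in either comparison: SDHA was at 0.02 ± 0.25 in 22Rv1 and 0.13 ± 0.26 in LTAD, SDHB at 0.29 ± 0.27 and -0.32 ± 0.29, SDHC at 0.45 ± 0.29 and 0.48 ± 0.32, and SDHD at 0.79 ± 0.42 and 0.18 ± 0.44.

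The lines differed more in the input level of these transcripts. In 22Rv1 29 of the 90 were higher than in LNCaP and 5 lower, against 26.5% higher and 23.4% lower of all genes, and their median was 0.19 where all genes had 0.00. In bulk libraries, fewer cells with a transcript and less of it per cell cannot be told apart. The balance of higher and lower calls depended on the scaling: it was 18 to 10 after the trend with exonic length was removed and 12 to 23 after the trend with coding length was removed, where the median of all genes moved to -0.18. All genes gave 23.1% higher and 28.8% lower with the exonic trend removed and 22.6% higher and 30.7% lower with the coding trend removed. Without the 22Rv1 DHT pair 14 were higher and 2 lower.

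Complex IV had the largest share of higher genes, 8 of 13 with a median of 0.72, then complex I with 15 of 46 higher and 4 lower, complex V with 4 of 16 and complex II with 1 of 4. Complex III had 0 higher and 1 lower of 9. NDUFB2 had 87.4 and 90.3 CPM in 22Rv1 input (DHT, vehicle), against 17.0 and 25.6 CPM in LNCaP input, a difference of 2.07 ± 0.25 (edgeR adjusted p = 3.93e-05). ATP5J2 had 445 and 396 CPM in 22Rv1 input against 149 and 135 CPM in LNCaP input, a difference of 1.56 ± 0.14 (edgeR adjusted p = 4.32e-06). COX6A1, the widely expressed isoform of subunit VIa, had 169.9 and 207 CPM in 22Rv1 input against 64.9 and 74.3 CPM in LNCaP input, a difference of 1.44 ± 0.17 (edgeR adjusted p = 3.95e-05). In all 3 genes both 22Rv1 libraries were above both LNCaP libraries.

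The next of the called genes by p were NDUFA5 (1.52 ± 0.20), NDUFB8 (1.34 ± 0.20), COX5B (0.84 ± 0.13), NDUFA4 (0.98 ± 0.16), NDUFAF4 (1.94 ± 0.33), ATP5J2-PTCD1 (0.84 ± 0.14) and COX8A (0.86 ± 0.15). COX8A missed the threshold once the trend with coding length was removed (adjusted p = 0.0962). Among isoforms, COX4I1 was higher by 0.73 ± 0.14, COX7A2 by 0.72 ± 0.17 and NDUFA4L2 by 1.69 ± 0.46. COX7A2 lost the call without the 22Rv1 DHT or the LNCaP vehicle pair and after the trend with coding length was removed (adjusted p = 0.125, 0.0633 and 0.370). NDUFA4L2 lost it after that removal, at equal depth and in 3 of the fits that left out a pair (adjusted p = 0.0519 to 0.0818). SDHB was higher by 0.85 ± 0.20, lost without the 22Rv1 DHT pair (adjusted p = 0.0562), and SDHA, SDHC and SDHD had no call at -0.06 ± 0.20, 0.32 ± 0.21 and -0.06 ± 0.32. The 5 lower genes were NDUFV1, UQCRC2, NDUFV3, NDUFB10 and NDUFB4.

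The higher genes were spread unevenly over the chromosomes. All 5 tested genes on chromosome 7 (NDUFB2, ATP5J2, NDUFA5, NDUFA4 and ATP5J2-PTCD1, the last sharing exons with ATP5J2) were higher in 22Rv1, by 0.84 to 2.07. The 677 genes tested on chromosome 7 had a median of 0.42, with 37.2% higher. The 731 on chromosome 12 had a median of 0.49, with 44.5% higher. There 3 of 6 respiratory chain genes were higher, near that share, with a median of 0.33. On chromosome 4 and on chromosome 6, 2 of 2 were higher, where 34.2% and 31.8% of all genes were. Copy number was not measured in these files, and its part in the result was not tested.

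**Figure D5:**
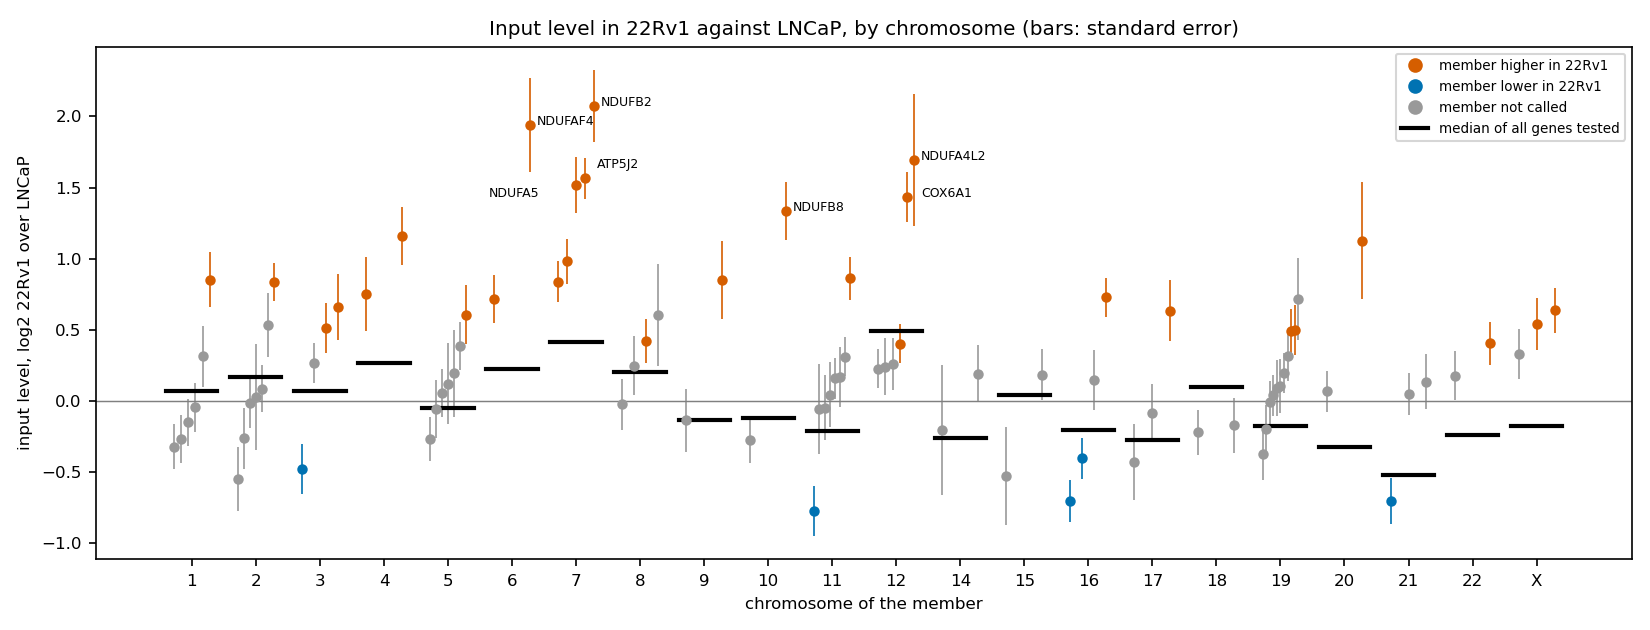
Input log2 difference of 22Rv1 over LNCaP for 89 of the 90 tested genes by chromosome, with its standard error, and the median of all tested genes on that chromosome as a black bar. The 5 points on chromosome 7 lie between 0.84 and 2.07, all above the chromosome's median of 0.42.

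Between LTAD and LNCaP input, 1 of the 90 genes was higher and 1 lower (2.92% and 5.26% of all genes). At an unadjusted p under 0.05 there were 26 of the 90, against 3201 of all 13771 genes. Their median was 0.23, where that of all genes was -0.0007. NDUFB7, an accessory subunit of complex I, had 149.8 and 145 CPM in LTAD input (DHT, vehicle) against 97.3 and 98.2 CPM in LNCaP input. COX7A2 had 58.3 and 87.4 CPM in LTAD input against 133 and 125 CPM in LNCaP input. The groups were apart in both, with 0.59 ± 0.15 for NDUFB7 and -0.85 ± 0.19 for COX7A2 (edgeR adjusted p = 0.0319 and 0.0198). Both calls were fragile. NDUFB7 missed the threshold without 22Rv1 and without any one of the 6 pairs (adjusted p = 0.0595 to 0.188), and COX7A2 without 22Rv1 and without 4 of the 6 pairs, the 22Rv1 pairs, LNCaP DHT and LTAD DHT (adjusted p = 0.0564 to 0.231).

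SDHC and NDUFB2 came next, at -0.86 ± 0.25 and 0.98 ± 0.29 (edgeR adjusted p = 0.0520 and 0.0544). SDHC passed without the LNCaP DHT or the LTAD DHT pair (adjusted p = 0.0281 and 0.0491), without a filter (0.0102) and with the trend of coding length removed (0.0355), and NDUFB2 passed without a filter (adjusted p = 0.0170). The other genes of complex II were at 0.27 ± 0.21 (SDHA), 0.36 ± 0.21 (SDHB) and -0.11 ± 0.34 (SDHD). Of the other isoforms, COX4I1 was at -0.11 ± 0.14, COX6A1 at 0.07 ± 0.19, NDUFA4 at 0.13 ± 0.17 and NDUFA4L2 at -0.63 ± 0.68, with 0 of these 4 past the threshold.

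DHT changed the input level of 0 of the 90 genes (5 at an unadjusted p under 0.05, DESeq2 0), where 0.436% of all genes were higher and 0.189% lower. The smallest p-values were those of COX6A1 (-0.37 ± 0.15), COX6C (-0.30 ± 0.13), NDUFA12 (0.35 ± 0.15) and SDHD (-0.60 ± 0.27), with edgeR adjusted p of 0.366 to 0.423. COX6A1 had 169.9, 57.6 and 64.9 CPM after DHT in 22Rv1, LTAD and LNCaP input, against 207, 92.2 and 74.3 CPM after vehicle. It was lower after DHT in each line, though the spread between the lines was larger than that. SDHA, SDHB and SDHC were at -0.01 ± 0.17, 0.00 ± 0.16 and 0.10 ± 0.19.

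The effect of DHT on PSF-RIP over input was called for 0 of 13771 genes (0%; 224 unadjusted; DESeq2 0) and for 0 of the 90 (2 unadjusted, DESeq2 0). UQCRB, an accessory subunit of complex III, had 85.3, 107 and 64.0 CPM after DHT in 22Rv1, LTAD and LNCaP PSF-RIP, against 58.5, 96.3 and 54.9 CPM after vehicle. In input it had 150.5, 151 and 139.5 CPM after DHT, against 171, 278 and 129.5 CPM after vehicle. PSF-RIP was higher after DHT in all 3 lines, while input was lower in 22Rv1 and LTAD and higher in LNCaP. The difference was 0.63 ± 0.23 with an edgeR adjusted p of 1.00, and the fit with the pair as a block called it, at 0.67 (edgeR adjusted p = 0.00302), as 1 of 7 genes in all. NDUFA3, ATP5G3 and COX6C followed at 0.40 ± 0.18, -0.47 ± 0.24 and 0.35 ± 0.18. For complex II the differences were 0.13 ± 0.21 (SDHA), -0.12 ± 0.22 (SDHB), -0.15 ± 0.25 (SDHC) and 0.10 ± 0.35 (SDHD).

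Genes that work with the chain but lie outside the rule were looked at in PSF-RIP over input too, in lists not matched for length. Of 21 assembly factors of complex IV 14 were lower and 3 higher, from COX16 (-1.85 ± 0.12) to the translation activator TACO1 (0.85 ± 0.13). Of 8 further assembly factors of complex I 4 were lower and 2 higher, from TMEM126B (-1.20 ± 0.18) to FOXRED1 (0.61 ± 0.13). For complex II 3 of 3 tested assembly factors were lower, from SDHAF3 (-2.68 ± 0.24) to SDHAF1 (-0.46 ± 0.16). SDHAF1 turned to 0.17, without a call, with the trend of exonic length removed (edgeR adjusted p = 0.333). With that of coding length removed it was called higher, at 0.59 (edgeR adjusted p = 0.00227).

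Of 8 partners of complex III, such as cytochrome c and the assembly factors, 5 were lower and 0 higher, with LYRM7 lowest (-1.37 ± 0.12) and BCS1L, at 0.23 ± 0.14, without a call. LYRM7 lost its call with the trend of coding length removed (-0.24, adjusted p = 0.0618), and BCS1L was called higher with that of exonic length removed (0.49, adjusted p = 0.00308). For complex V 5 of 6 were lower and 0 higher, from the small subunit C14orf2 (-2.27 ± 0.09) to ATPAF2, at 0.05 ± 0.12 and without a call. ATPAF2 was called higher with the trend of exonic or of coding length removed (0.38 and 0.34, adjusted p = 0.00951 and 0.0209). The remaining lists had fewer lower than higher genes, as had all genes tested (27.5% lower, 30.5% higher). Their median exonic lengths were 2423 nt (glycolysis), 2306 nt (citric acid cycle) and 3336 nt (transcription). By complex the median ran from 701 nt (complex IV) to 2157.5 nt (complex II), and the part of length in these differences was not tested. Of 17 glycolytic enzymes 10 were higher and 3 lower, from GAPDH (-0.45 ± 0.09) to ENO2 (0.89 ± 0.10), with a median of 0.39. GAPDH was at -0.08 and without a call when the trend with exonic length was removed (adjusted p = 0.458). Of 14 enzymes of the citric acid cycle 4 were higher and 2 lower, with a median of -0.02 that lies below the 0.05 of all genes and a higher share of 28.6% beside the 30.5% of all genes; they ranged from SUCLG1 (-0.27 ± 0.11) to fumarase, FH (0.63 ± 0.09). SUCLG1 was called only narrowly (edgeR adjusted p = 0.0441) and lost the call with DESeq2 and in 7 of 9 fits that left out a line or a pair, and SDHAF1 lost it without LTAD or either of its pairs. BCS1L was called higher without LTAD and without the LTAD vehicle pair (adjusted p = 0.0127 and 0.0367). Of 12 tested factors that control transcription of the chain's genes 4 were higher and 1 lower: TFAM, the packaging factor of mitochondrial DNA, at -1.12 ± 0.11, with the mitochondrial RNA polymerase POLRMT highest at 0.89 ± 0.16.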

How the data were processed

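Per the submitters' processing notes, reads were mapped to hg19 (GRCh37) with tools that include TopHat2 2.1.0, Bowtie2 2.2.6 and Bowtie; libraries were made with a SureSelect target enrichment kit for RNA, per the labels. The deposited values are, per the file headers, counts of unique reads on each RefSeq transcript, intron and antisense feature, with its length, in 1 table per library. The authors' PSF-CLIP lists hold peak positions and a score, starting at 50, without strand. Another set of LNCaP tables, with 12 value columns, was not used here because the labels of its 4 samples contradict each other.

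For each symbol the protein-coding transcript with the highest mean count was kept. Tests used edgeR 4.0.16 (quasi-likelihood, TMM, filterByExpr, Benjamini-Hochberg at 0.05) with limma 3.58.1 in R 4.3.3, over all genes: PSF-RIP over input with line and treatment as terms (7 residual degrees of freedom), the other comparisons from 1 model with interactions (4 residual degrees of freedom). DESeq2 1.42.0 was an alternative. The test of PSF-RIP over input was also run on simulated counts with 200 changed genes. These had no length trend and no differences between lines, so that run does not bear on either. Each PSF-RIP library resembled its own input best (correlation of deviations 0.799 to 0.942), so the line-treatment pairs, given by the labels, are paired. The main fits do not use this pairing. The fit that does is an alternative, with fewer residual degrees of freedom. Other alternatives were no filter, leaving out lines and pairs, length trends, the longest transcript, other library sizes and equal depth. Single pairs used a prior count of 2. Coding lengths came from GENCODE v44 on hg19 for 93 of the 94 genes, and peaks were overlapped with bedtools 2.31.1. Every input library had fewer reads than its PSF-RIP library, so depth limits precision most in input.

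Genes were named by rule: in PSF-RIP over input every higher gene, the 12 lowest and the extremes of each complex; elsewhere called genes (at most 10) or the 4 with the smallest p; the 4 SDH genes and the listed isoforms; and the extremes of each pathway list. 1 gene that this rule names is not reported here and is left out of the figures, though the counts include it. Genes named beside these were chosen after their values were seen. The set, the lists and the rules were chosen with earlier results of these data known. The isoforms COX4I2, COX6A2 and COX7A1 were not analysed here.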

Additional observations from a re-analysis of the deposited data

Results flagged for a closer look

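Reads on the antisense strand of the 94 genes, which enter none of the comparisons, were more frequent in PSF-RIP than in input: 122, 142 and 209 per 1000000 mapped reads (lowest, median, highest) in PSF-RIP, against 92.3, 114 and 151 in input, with PSF-RIP above its own input in 6 of 6 pairs. They were picked out as a signal outside the main measurement that was above its level in input. Of these reads 80.0% belonged to ATP5J2-PTCD1 (5458 in PSF-RIP and 1056 in input). Without that locus 1260 reads remained in PSF-RIP and 369 in input, or 25.2, 30.0 and 32.8 per 1000000 mapped reads in PSF-RIP against 29.8, 31.0 and 33.6 in input, with PSF-RIP higher in 2 of 6 pairs. The difference between the assays over the 94 genes therefore rested on 1 readthrough locus. None of the 26 named genes had a pair that stood apart from the other 5 by Dixon's criterion for 6 values.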

How the results depend on the processing

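With the line-treatment pair as a block, PSF-RIP over input gave 10 genes higher and 74 lower; the differences between lines gave 1 higher and 2 lower (22Rv1) and 0 higher and 3 lower (LTAD), the DHT difference 1 higher and 0 lower, the intronic counts 11 and 19, the median -1.11 and the rank correlation with exonic length 0.47. The block changed no other call of a gene in the comparison for which the rule named it. In PSF-RIP over input it added a lower call among the genes that had none in the main fit. With the trend of exonic length removed, PSF-RIP over input gave 17 higher, 48 lower, a median of -0.30 and a rank correlation of -0.073; SUCLG1 turned to 0.12 and SDHAF1 to 0.17. With the trend of coding length removed, it gave 45 lower, a median of -0.34 and a rank correlation of 0.26; NDUFA4L2 turned to 0.41 and SDHAF1 to 0.59. The rank correlation was 0.43 without a filter and 0.82 with coding length. The input of 22Rv1 against LNCaP gave 19 higher and 3 lower with DESeq2, and 18 and 10 with the exonic trend removed. It gave 12 and 23 with the coding trend removed. Without mitochondrial and non-coding rows it gave 33 and 3, and at equal depth 20 and 5. The input of LTAD against LNCaP gave 3 higher with DESeq2, 5 higher and 2 lower without a filter, 0 higher with the exonic trend removed, 2 and 2 with the coding trend removed, and 3 higher at equal depth. Leaving out introns that overlap annotated exons gave 2 higher and 12 lower. Peaks scoring at or above a list's median touched 22 genes in DHT replicate 1 (23.4%, all genes 20.7%) and 3 in DHT replicate 2 (3.19%, 12.2%). They touched 16 in vehicle replicate 1 (17.0%, 20.9%) and 4 in vehicle replicate 2 (4.26%, 3.96%). Of the 90 tested genes they touched 22, 3, 16 and 3 in that order, against 28.6%, 15.2%, 29.2% and 4.31% of all tested genes. The causes were not tested.

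Leaving out each line and each pair, PSF-RIP over input had 8 to 10 genes higher, 71 to 74 lower and a median of -1.22 to -1.08; the rank correlation was 0.46 to 0.48. The intronic counts were 7 to 11 higher (7 without LNCaP and without LTAD) and 10 to 18 lower (10 without 22Rv1 and without LTAD). The input of 22Rv1 against LNCaP had 14 to 30 higher and 2 to 6 lower, that of LTAD 0 to 3 higher and 0 to 1 lower, and the other comparisons 0. In the comparisons for which the rule named them, all genes kept their call with the longest transcript and without mitochondrial and non-coding rows. Outside those, calls moved without these rows. There 74 genes were lower in PSF-RIP over input and 3 in the input of 22Rv1, against 73 and 5 in the main fit. The alternatives on introns and coding length were chosen after seeing the data. A strand alternative for the peak lists could not be run, since they carry no strand. The depth of the input libraries limits the rare transcripts, such as NDUFA4L2 and NDUFAF7, most.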
